A study of Mus musculus with 3 samples.

Results

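The library labelled Nrf2-EGFP was compared with the library labelled wt across all genes measured in either. Both are RNA sequencing libraries of mouse keratinocytes, the epithelial cells of the epidermis, from the C57BL/6 strain, immortalised with SV40 and harvested in exponential growth. The wt library carried no change that its labels name, and the Nrf2-EGFP library was labelled as carrying Nrf2 joined to the green fluorescent protein EGFP. The promoter, species and integration of that construct, whether the cells were 1 clone, and the meaning of the word High in the library's title are left unstated by the labels. The remaining library of the series, ARPC4 ko (a knockout of a subunit of the actin-nucleating Arp2/3 complex, same strain and immortalisation), is quoted only to place values. The members are the 11678 genes, of 41214 gene identifiers in the series, with at least 1 CPM (gene counts after the libraries were scaled to equal size) in 1 of the 2 libraries. The 2 libraries held 22924294 (wt) and 25723959 (Nrf2-EGFP) gene counts. Because each genotype had 1 library, the spread between cultures is unknown and no p-value is given.

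NRF2, the protein of the gene Nfe2l2, is a transcription factor that is held in the cytoplasm and sent for degradation by KEAP1 and CUL3, and that enters the nucleus when oxidants or electrophiles modify KEAP1. With small MAF proteins it binds antioxidant response elements near genes for glutathione and thioredoxin synthesis, quinone and heme breakdown, NADPH supply and drug conjugation. In the epidermis it is also known to act on cornified envelope genes such as those for small proline-rich proteins, and on secreted factors of the keratinocyte.

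The core of the antioxidant response element, written TGACNNNGC, was looked for on both strands of RefSeq promoter windows (GRCm38.p6, 250 bases before to 50 after a start). Of 51 measured NRF2 targets and glutathione S-transferases, 43 had a window, and 11 of these (25.6%) held the letters. Among all 27025 genes with a window, measured here or not, 13.99% held them in any window. The 11 were Prdx1, Gclm, Txnrd1, Srxn1, G6pdx, Pgd, Me1, Abcc4, Ugdh, Gstm5 and Mgst1. The AP-1 type letters TGANTCA, which overlap with the former where the element reads on through TCA, were in 20.9% of the 43 and in 8.97% of the 27025 genes. The TEAD type letters GGAATG were in 4.65% and 16.6%. The lines below give the match with 25 bases on each side, 5′ to 3′ on the gene's strand with the match in capitals, for 3 targets, for the small MAF gene Maff, for the cornified envelope gene Sprr1a and for the growth factor gene Vegfc, because their differences from wt were of unlike direction and size.
Prdx1 (chr4:116685441-116685499, plus strand): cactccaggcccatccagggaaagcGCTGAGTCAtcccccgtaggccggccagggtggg
Gclm (chr3:122245398-122245456, plus strand): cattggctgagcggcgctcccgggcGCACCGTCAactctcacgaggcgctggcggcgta
Txnrd1 (chr10:82859089-82859147, plus strand): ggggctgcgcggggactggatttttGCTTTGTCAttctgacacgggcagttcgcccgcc
Maff (chr15:79346484-79346542, plus strand): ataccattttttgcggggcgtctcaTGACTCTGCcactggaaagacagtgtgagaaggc
Sprr1a (chr3:92485996-92486054, minus strand): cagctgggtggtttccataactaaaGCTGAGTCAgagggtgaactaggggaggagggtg
Vegfc (chr8:54077412-54077470, plus strand): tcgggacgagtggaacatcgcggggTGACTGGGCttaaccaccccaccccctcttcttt
The match reads on the opposite strand in Prdx1, Gclm, Txnrd1 and Sprr1a, and in Prdx1 and Sprr1a it overlaps TGANTCA. Prdx1 had 1056 CPM in wt and 749 in Nrf2-EGFP, Gclm 39.7 and 37.9, and Txnrd1 313 and 364. Maff had 15.2 CPM in wt and 24.4 in Nrf2-EGFP, Sprr1a 9.92 and 2.5, and Vegfc 2.27 and 34.7. These genes were picked for their unlike differences from wt, so the range of their values says nothing about the letters. Prdx1, Gclm, Txnrd1 and Maff were not called. The median log2 fold of the 11 targets with the letters TGACNNNGC was 0.18 and that of the other targets with a window was -0.14. Of the 11, 7 lay above 0. For TGANTCA the medians were 0.11 in 9 targets with it and -0.10 in the others, and for GGAATG 0.03 in 2 targets and -0.09. A higher median with the letters was thus not particular to TGACNNNGC. A match is a description of these windows and not a site. Windows were found for 79.4% of all measured genes but for 72.7% of the genes called higher and 69.3% of those called lower, so a comparison of motif shares by call is void and none is given.

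The labels were checked first. Nfe2l2 (chromosome 2, 75675513 to 75704641 in mm10) had 225 CPM in wt, 166 in Nrf2-EGFP and 179 in ARPC4 ko, so the gene's level was lowest in the library labelled Nrf2-EGFP. The labels do not say how reads of the construct were counted. EGFP itself has no row among the gene identifiers analysed here. Keap1 had 60.5 CPM in wt, 66.9 in Nrf2-EGFP and 62.2 in ARPC4 ko. Of 8 keratinocyte markers 7 were measured, with a summed level of 21373 CPM in wt and 16960 in Nrf2-EGFP, and the last, Krt15, had 2 counts in wt and 0 in Nrf2-EGFP. Of 10 fibroblast markers 2 were measured, the sum was 1.87 CPM in wt and 4.51 in Nrf2-EGFP, and Col1a2, Col3a1, Dcn, Lum, Pdgfrb and Thy1 were at 0 in both. The immune (1 of 7 measured), melanocyte (1 of 6) and endothelial (1 of 5) markers summed to at most 5.56 CPM in either library, with Adgre1, Cd207, Cd3e, Dct, Sox10 and Tyr at 0 in both. Xist, the transcript that silences 1 X chromosome in female cells, had 22954 counts in wt and 28174 in Nrf2-EGFP, and the Y-linked Ddx3y and Eif2s3y had 0 in both.

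A gene is named higher or lower here only where the log2 ratio of CPM + 0.5 was at least 1 in size and the 95% counting interval of the ratio excluded 1. Called higher in Nrf2-EGFP were 421 genes (3.61% of those measured), and called lower were 241 (2.06%). Of these, 104 of the 421 had under 1 CPM in wt and 106 of the 241 under 1 CPM in Nrf2-EGFP, so they were measured only through the library where they were high. At least 4-fold higher were 58 genes (0.497%) and at least 4-fold lower 37 (0.317%). The median log2 fold of all measured genes was 0.0033, and its quartiles were -0.22 and 0.23. In contrast to the size rule, the interval alone excluded 1 for 7447 genes (63.8%), since it covers counting error only and not the spread between cultures. Near the threshold, 152 genes had a log2 fold of 0.9 to 1 in size and 107 one of 1 to 1.1. With a pseudocount of 2 CPM in place of 0.5, these genes named below lost their call: Aldh3a1, Batf3, Dsc1, Fstl1, Gdnf, Iglon5, Il33, Isg15, Krt1, Maml3, Mgst1, Mgst2, Nfkbie, Nid1, Nrg2, Oasl2, Rps4l, Rsad2, Sdr16c6, Sema3d, Tbx15, Tchh, Tgfb3, Trp53inp1, Twist1 and Twist2. Folds below are ratios of scaled counts between Nrf2-EGFP and wt, each with its 95% counting interval where a range follows, and 3 CPM values in a row are those of wt, Nrf2-EGFP and ARPC4 ko in this order. Counts of called list members below are to be read beside the shares of all measured genes, 3.61% higher and 2.06% lower. The lists and their members were chosen with earlier results of these data known, so a list's excess over these shares is no separate support.

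**Figure D1:**
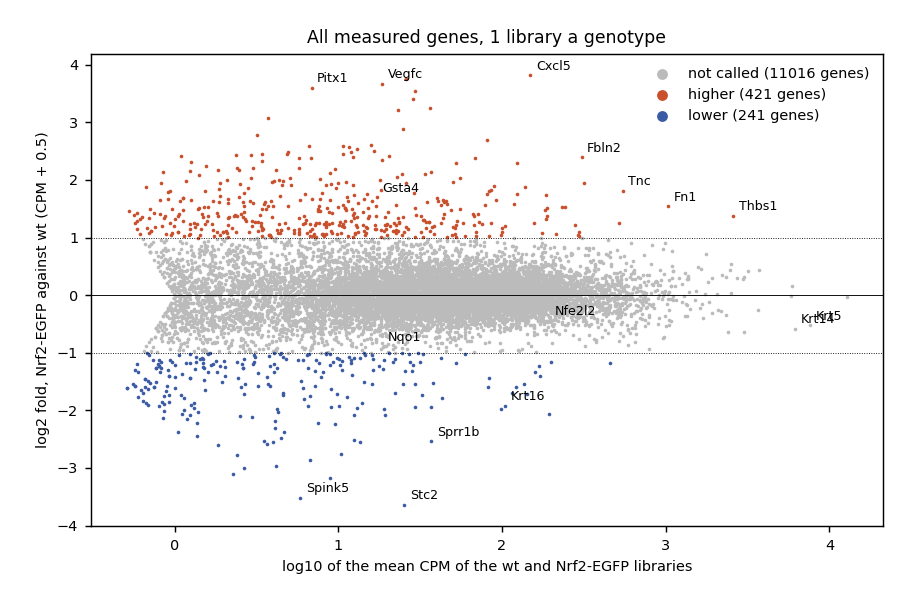
Log2 fold of each measured gene (y axis, Nrf2-EGFP against wt, CPM + 0.5) against the log10 of its mean CPM in both libraries (x axis), with the 421 genes called higher and the 241 called lower in colour and dotted lines at the threshold. Nfe2l2 and Nqo1 lie below 0 without a call, while Tnc, Fn1 and Thbs1 lie above the upper line at high counts.

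Among the genes that control NRF2, none of 14 measured members was called, and the median log2 fold was 0.07. With 5.67% of all measured genes called, none called lies near that share for a list this short. Sqstm1, the autophagy receptor that binds KEAP1, had 337 CPM in wt and 208 in Nrf2-EGFP, 1.62-fold below wt (1.57 to 1.68) without a call. The small MAF genes, whose proteins pair with NRF2 on DNA, had higher values in Nrf2-EGFP without a call: Maff 15.2 against 24.4 CPM and Mafk 48 against 62.1. Bach2, a repressor that competes at the same elements, had 1.78 CPM in wt and 3.38 in Nrf2-EGFP.

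None of 14 glutathione and thioredoxin targets was called, and their median log2 fold was -0.04, against 0.0033 for all genes. Of all measured genes 5.67% were called, so none called lies near that share for a list this short. Glutathione synthesis was represented by Gclc (90.3 CPM in wt, 110.03 in Nrf2-EGFP) and Gclm (39.7 and 37.9), the subunits of its rate-limiting enzyme. The cystine carrier Slc7a11 had 112 CPM in wt and 119.8 in Nrf2-EGFP, and sulfiredoxin, Srxn1, had 43.5 and 53.2. Lower values without a call were those of the peroxidase genes Gpx4 (135 and 91.8 CPM), Gpx2 (126 and 86) and Prdx1 (1056 and 749), and of the glutathione-degrading enzyme gene Chac1 (91.6 and 55.7). Gsr, the glutathione reductase, had the highest value relative to wt in this list, with 108 CPM in wt and 148 in Nrf2-EGFP.

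Of 23 NADPH, quinone, heme and iron targets, 1 was called higher and 2 lower, and the median log2 fold was 0.02 (-0.0057 with scaling by total counts). Adh7, an alcohol and retinol dehydrogenase, had 21.4 CPM in wt, 3.34 in Nrf2-EGFP and 2.67 in ARPC4 ko, 6.42-fold lower (5.07 to 8.2). Trp53inp1, a stress-induced gene of autophagy and cell death, had 19.3 CPM in wt, 9.38 in Nrf2-EGFP and 30.5 in ARPC4 ko, and its call was lost under 3 of the alternative settings. Aldh3a1, an aldehyde dehydrogenase, was the member called higher, from 4 counts in wt to 41 in Nrf2-EGFP. The quinone reductase gene Nqo1 had 24.5 CPM in wt, 12.9 in Nrf2-EGFP and 11.1 in ARPC4 ko, just short of the lower call, and Osgin1 (23.8 and 45.5 CPM) lay just short of the higher call. Heme oxygenase 1, Hmox1, had 43.1 CPM in wt and 55.6 in Nrf2-EGFP. In the pentose phosphate pathway, which supplies NADPH, G6pdx had 199 and 201 CPM and Pgd 309 and 351. Values of the ferritin genes were 556 and 552 CPM for Fth1 and 553 and 394 for Ftl1.

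**Figure D2:**
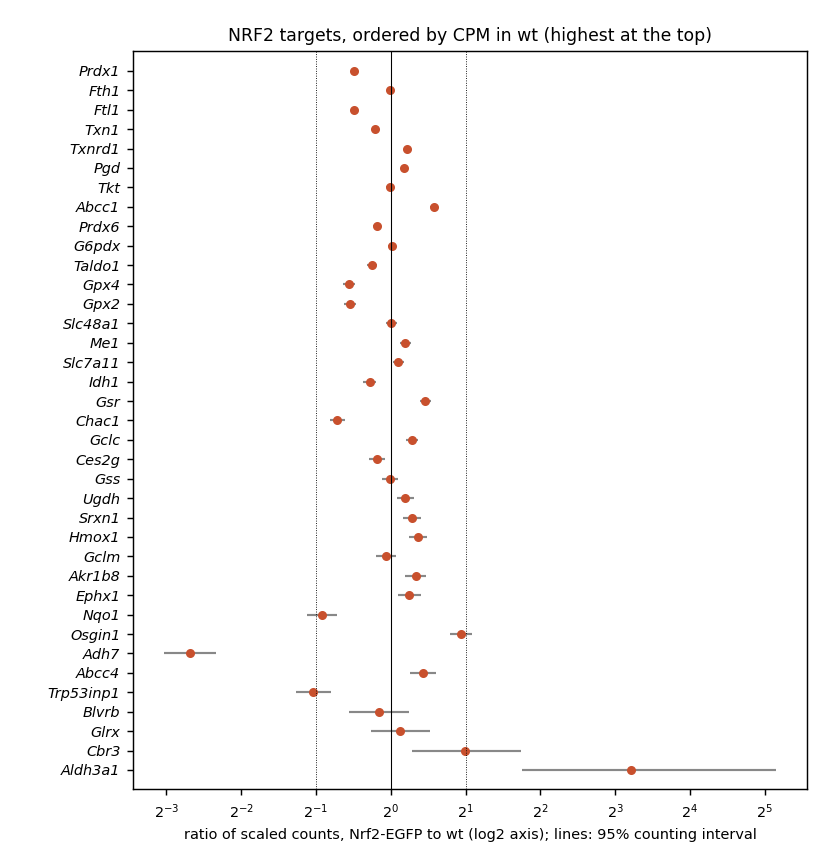
Ratio of scaled counts, Nrf2-EGFP to wt (x axis, log2 scale), for each measured NRF2 target of both lists, ordered by CPM in wt, with lines for the 95% counting interval and dotted lines at 2-fold lower and higher. Most targets lie between the dotted lines on both sides of 1, and Adh7 and Aldh3a1 lie farthest out.

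Glutathione S-transferases, which conjugate glutathione to electrophiles, had 1 of 14 measured members higher and 2 lower, and a median log2 fold of -0.13. Gsta4, which detoxifies the lipid peroxidation product hydroxynonenal, was the member higher, with 7.83 CPM in wt, 26.6 in Nrf2-EGFP and 15 in ARPC4 ko (3.4-fold, 2.88 to 4.04). The microsomal members Mgst1 (2.85 and 0.926 CPM) and Mgst2 (36 and 4 counts) were lower. Some copies in this family are near-identical, and reads without a unique alignment were left out, so the values of those copies are uncertain. Proteasome subunits, some of which NRF2 and its relative NFE2L1 are known to induce, had none of 32 called and a median of -0.14. Psmb4 had 187 CPM in wt and 141 in Nrf2-EGFP, and Psmd4 204 and 150.4.

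Several of the highest ratios belonged to genes of unlike function. Pitx1, a homeobox transcription factor of hindlimb identity, had 0.623 CPM in wt, 13.1 in Nrf2-EGFP and 6.5 in ARPC4 ko. Has2, a synthase of the matrix polysaccharide hyaluronan, had 1.51 CPM in wt, 11.6 in Nrf2-EGFP and 5.55 in ARPC4 ko (7.69-fold higher, 5.38 to 11.3). Cacna1g, a T-type calcium channel subunit, had 4.14, 27.6 and 17.1 CPM in the same order (6.69-fold, 5.38 to 8.39). For each of these genes the Nrf2-EGFP library was the highest of the 3 and wt the lowest. The same order was seen for Vwa2, a protein of the basement membrane zone (2.71, 18.8 and 7.98 CPM), Dgkk, a diacylglycerol kinase (2.98, 20.3 and 9.21), and Atp1b1, the beta subunit of the sodium pump (3.47, 22.7 and 16.4). Wipf1, which binds the Arp2/3 activator WASP, had 3.29 CPM in wt, 20.8 in Nrf2-EGFP and 15.7 in ARPC4 ko (6.31-fold, 4.94 to 8.16).

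Dbn1, the actin-binding protein drebrin, had 21.6 CPM in wt and 114 in Nrf2-EGFP (5.31-fold higher, 4.82 to 5.86), with 115 in ARPC4 ko. Hcar2, a receptor for hydroxybutyrate and niacin, had 6.05, 34.5 and 39.5 CPM in wt, Nrf2-EGFP and ARPC4 ko. Here, and for Ccl2, C3, Cxcl5 and Ntn1, ARPC4 ko was the highest of the 3 libraries. Others among the 25 highest log2 folds were Apobr (2.94 CPM in wt and 18.3 in Nrf2-EGFP), the transcriptional coregulator gene Mn1 (3.56 and 20.9), Plscr2 (1.87 and 11.8) and Odaph (5.69 and 31.1).

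**Figure D3:**
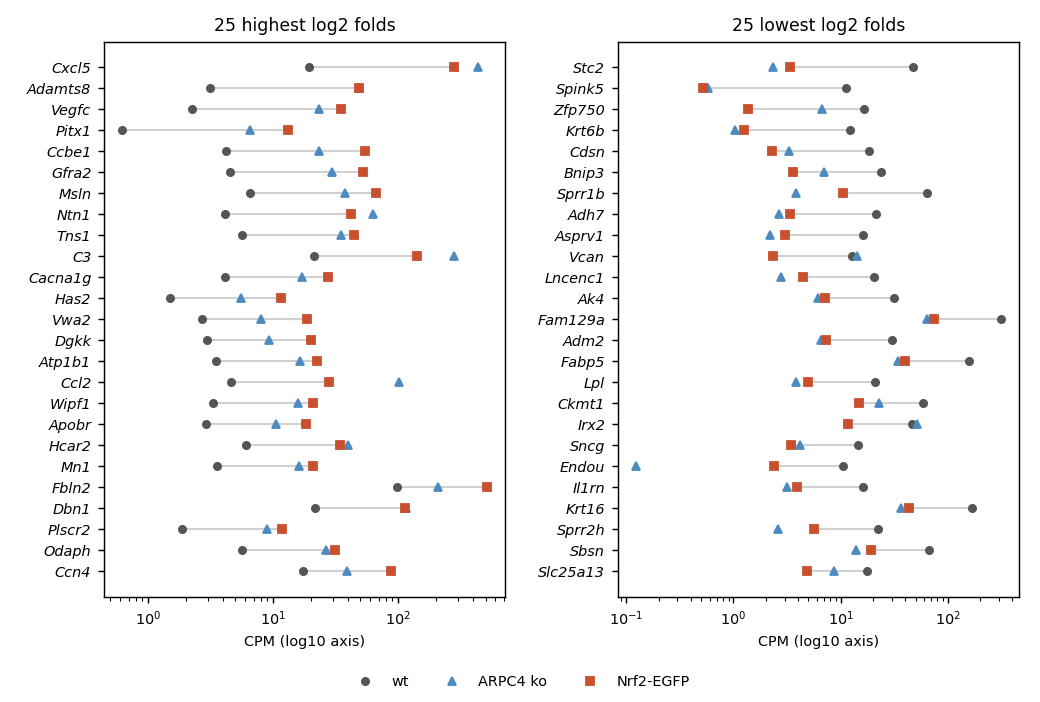
CPM (log10 axis) in the wt, ARPC4 ko and Nrf2-EGFP libraries for the genes with the 25 highest (left) and 25 lowest (right) log2 folds among called genes with at least 10 CPM in wt or Nrf2-EGFP, 1 point a library, with grey lines joining wt and Nrf2-EGFP. ARPC4 ko lies between or beyond the other libraries on the Nrf2-EGFP side for most genes, and near wt for Vcan and Irx2.

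By change in CPM rather than in ratio, the 10 largest gains in Nrf2-EGFP included matrix, actin and lipid genes. Thbs1, the matricellular protein thrombospondin 1, had 1437 CPM in wt and 3737 in Nrf2-EGFP, and was called higher (2.6-fold, 2.57 to 2.63). Actb, cytoplasmic beta-actin, had 3154 and 4262 CPM, and Scd2, a stearoyl-CoA desaturase, 2697 and 3619, both without a call. The giant cadherin Fat1 had 1338 and 2206 CPM, also without a call. The 10 largest losses in CPM fell short of the size rule, among them Krt5 (8997 in wt, 6248 in Nrf2-EGFP), Krt14 (7378 and 4932) and the translation elongation factor gene Eef2 (3974 and 3311).

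The lowest ratios included metabolic and differentiation genes. Fabp5, the epidermal fatty acid-binding protein, was lower, with 156 CPM in wt, 39.6 in Nrf2-EGFP and 34.6 in ARPC4 ko (3.95-fold, 3.68 to 4.24). Lpl, lipoprotein lipase, had 20.9, 4.99 and 3.87 CPM in the same order. Fam129a, a stress-regulated protein also named Niban, had 313, 74.1 and 63.9 CPM (4.22-fold lower in Nrf2-EGFP, 4.01 to 4.45). In these genes both other libraries lay well below wt. The iroquois homeobox gene Irx2 had 46.7 CPM in wt, 11.8 in Nrf2-EGFP and 51.3 in ARPC4 ko, and the proteoglycan gene Vcan 12.7, 2.33 and 14.3, so here Nrf2-EGFP alone was low. Others were the mitochondrial carrier gene Slc25a13 (17.6 CPM in wt, 4.83 in Nrf2-EGFP), the mitochondrial creatine kinase gene Ckmt1 (58.7 and 14.8), the adenylate kinase gene Ak4 (31.5 and 7.08), Sncg (14.5 and 3.42), Endou (10.6 and 2.41), Adm2 (30.4 and 7.36) and the noncoding Lncenc1 (20.4 and 4.43).

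Basal keratinocyte genes, which anchor the epidermal stem layer, had none of 14 measured members called and a median log2 fold of 0.27. Krt5 and Krt14, the keratin pair of that layer, lay at -0.53 and -0.58 on the log2 scale, whereas the integrin genes Itgb1 and Itga3 of the same list lay at 0.46 and 0.50. Keratins in all took 2.34% of gene counts in wt, 1.58% in Nrf2-EGFP and 1.17% in ARPC4 ko. Of 7 measured stress and simple epithelial keratins 2 were lower and none higher (median -0.64, and 0.22 without the filter on low counts). Krt16, a keratin of wounded and hyperproliferative epidermis, had 166 CPM in wt, 43.5 in Nrf2-EGFP and 36.4 in ARPC4 ko, and Krt6b 12.2, 1.25 and 1.03. The simple epithelial pair Krt8 (474 in wt and 595 in Nrf2-EGFP) and Krt18 (188 and 242) had higher values without a call. Krt6a and Krt6b are near-identical copies, and reads without a unique alignment were left out, so both may be undercounted.

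Suprabasal differentiation genes, which keratinocytes switch on as they leave the basal layer, had 14 of 23 measured members lower and none higher (median -1.58). Of the 14, 7 had under 1 CPM in Nrf2-EGFP, and the 16 members with at least 1 CPM in both libraries had a median of -0.50. Dsg1b, a desmosomal cadherin of the upper layers, had 7.78 CPM in wt, 0.563 in Nrf2-EGFP and 0.288 in ARPC4 ko (13.8-fold lower, 8.01 to 25.8). Krtdap, a small secreted protein of differentiating layers, had 101 counts in wt and 2 in Nrf2-EGFP. Abca12, the lipid transporter of lamellar granules, had 184, 60.1 and 35.1 CPM in wt, Nrf2-EGFP and ARPC4 ko (3.05-fold lower, 2.88 to 3.24). All 3 genes were highest in wt. In bulk RNA, fewer differentiating cells and less of these transcripts per cell cannot be told apart. Among transcription factors of differentiation, Grhl1 (33.9 CPM in wt, 10.1 in Nrf2-EGFP and 15.1 in ARPC4 ko) and Zfp750 (16.5, 1.37 and 6.66) were lower, and Klf4 (87.3 and 120.2 in wt and Nrf2-EGFP) and Ovol1 (35.8 and 27.4) were not called. Tgm1, the transglutaminase that crosslinks the envelope, had 11.7 and 15.6 CPM, and Krt10 4.62 and 3.22, also without a call.

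Cornified envelope genes had 7 of 12 measured members lower and none higher (median -1.09), of 35 in the list, so most were not measured. Of the 7, 2 had under 1 CPM in Nrf2-EGFP. Sprr1b, a small proline-rich envelope precursor, had 63.4 CPM in wt, 10.5 in Nrf2-EGFP and 3.83 in ARPC4 ko (6.04-fold lower, 5.29 to 6.92). Sprr2h had 22.1, 5.67 and 2.59 CPM in that order, and Sprr2k, which was not called, 14.5, 9.66 and 1.81. In these genes Nrf2-EGFP lay between wt and ARPC4 ko. Tchh, the hair follicle envelope protein trichohyalin, was lower as well (44.1 and 21.5 CPM in wt and Nrf2-EGFP), whereas the plakins Evpl (150.2 and 128) and Ppl (233 and 199) were not called. Reads that fit several Sprr copies have no unique alignment and were left out. The Sprr genes lie on chromosome 3, whose genes had a median log2 fold of -0.31. The part of either in these values was not tested. Desmosome genes had 4 of 14 lower, Dsg1a, Dsg1b, Dsc1 and Dsc3, and a median of -0.43. Of the 4, 3 had under 1 CPM in Nrf2-EGFP. The 11 members with at least 1 CPM in both libraries had 1 lower and a median of -0.34. Dsc3, a desmocollin of the basal layer, had 637 CPM in wt, 281 in Nrf2-EGFP and 329.5 in ARPC4 ko. The skin proteases and their inhibitors showed both directions, with 3 of 28 higher and 5 lower: Ctsc, cathepsin C, had 79.6 CPM in wt and 38.8 in Nrf2-EGFP, and the membrane-anchored protease gene Prss22 20.7 and 50.6. Of these 3, 1 had under 1 CPM in wt, and of the 5, 2 had under 1 CPM in Nrf2-EGFP.

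Many matrix genes were higher. Of 16 glycoproteins and proteoglycans 9 were higher and 2 lower (median 1.23), and of 15 collagens 4 were higher and none lower (0.71). Of the 4 collagens, 2 had under 1 CPM in wt. Of the 2 lower glycoproteins and proteoglycans, 1 had under 1 CPM in Nrf2-EGFP. Fn1, fibronectin, had 527 CPM in wt, 1538 in Nrf2-EGFP and 836 in ARPC4 ko (2.91-fold higher, 2.86 to 2.98). Fbln2, a fibulin that links basement membrane and elastic fibres, had 97.5, 515 and 207 CPM (5.28-fold, 5.05 to 5.53), and Tnc, the wound-matrix protein tenascin C, 241, 848 and 393 (3.52-fold, 3.42 to 3.63). In each, ARPC4 ko lay between wt and Nrf2-EGFP. Ltbp1, which tethers latent TGF-beta to the matrix, had 85.8 CPM in wt, 288 in Nrf2-EGFP and 237 in ARPC4 ko. Col8a1, a short-chain collagen, was higher (126, 362 and 329 CPM), and the basement membrane collagens Col4a1 (561 and 908 in wt and Nrf2-EGFP) and Col4a2 (507 and 762) fell short of the rule. Laminins and their partners had none of 12 higher and 1 lower, Nid1, which had 0 counts in Nrf2-EGFP against 23 in wt (median 0.34). Lamb1 had 303 and 590.3 CPM, and the proteoglycan gene Hspg2 583 and 1064, both without a call. With all measured genes split into 5 equal groups by exon length, the longest had a median log2 fold of 0.05, with 95 of 2326 genes higher and 32 lower, and the shortest -0.08, with 78 of 2326 higher and 91 lower. The part of length in the results was not tested.

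Enzymes that cut or protect the matrix had 13 of 28 members higher and 1 lower (median 0.65). Of the 13, 3 had under 1 CPM in wt. The 24 members with at least 1 CPM in both libraries had 10 higher and 1 lower. By gene symbol, 6 of 9 measured Mmp genes and 6 of 11 Adamts genes were higher, the highest shares among families of at least 8 members. The family counts may include genes with under 1 CPM in wt. Mmp13, a collagenase, had 2.58 CPM in wt, 9.9 in Nrf2-EGFP and 29.99 in ARPC4 ko (3.84-fold, 2.87 to 5.2), and Mmp11 5.03, 12.5 and 12.3. Adamts4, which cleaves proteoglycans, had 8.36 and 21.8 CPM in wt and Nrf2-EGFP. The gelatinase activator gene Mmp14 (102 and 161) was not called. Inhibitors differed in direction: Timp1 (18.7 CPM in wt, 61.1 in Nrf2-EGFP and 27.7 in ARPC4 ko) and Timp2 (187, 401 and 455) were higher, and Timp3 (58.2, 27.1 and 55.8) was lower. Plau, the urokinase that activates plasmin, had 195 CPM in wt and 397 in Nrf2-EGFP and was called higher.

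Among cadherins and genes of epithelial-mesenchymal transition, 5 of 15 were higher and none lower, and 2 of the 5 had under 1 CPM in wt. Cdh2, N-cadherin, had 21.4 CPM in wt, 89 in Nrf2-EGFP and 34.5 in ARPC4 ko (4.16-fold, 3.77 to 4.6), while E-cadherin, Cdh1, had 1078, 1033 and 962. The transcription factor genes Zeb2 (1.51 CPM in wt, 5.63 in Nrf2-EGFP), Twist1 (6 and 47 counts) and Twist2 (15 and 63 counts) were higher, and Snai2 (100.1 and 87.9 CPM) was not called. Of 22 fibroblast and mesenchymal markers 9 were measured, 6 of them higher and 1 lower, Acta2, with 5.07 and 1.37 CPM. Of the 6, 2 had under 1 CPM in wt, and Cdh2, Twist1 and Zeb2 are counted in both of these lists. The fibroblast collagen genes Col1a2 and Col3a1 stood at 0 in both libraries. Integrins had 1 of 13 higher, Itga7 (5.87 and 14.3), and a median of 0.50. Of 15 tight junction genes Cgnl1, paracingulin, was higher (8.63 and 37.1 CPM), and the claudin gene Cldn4 had 211 and 370.5 without a call.

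YAP and TEAD are transcriptional effectors that respond to cell shape and density, and 4 of 22 genes of that list were higher and none lower (median 0.36). The CCN genes for matricellular proteins were Ccn1, with 96.6 CPM in wt, 271 in Nrf2-EGFP and 190.1 in ARPC4 ko, Ccn2 with 20.1, 79.6 and 37.4, and Ccn4 with 17.4, 87.6 and 38.9. All 3 were highest in Nrf2-EGFP. Tead2 had 30.6, 75.5 and 75 CPM, so ARPC4 ko and Nrf2-EGFP lay close together. In TGF-beta and BMP signalling 2 of 28 were higher and 1 lower, with Fst, the activin antagonist follistatin, at 306 CPM in wt, 730.3 in Nrf2-EGFP and 721 in ARPC4 ko. Tgfb3 was the member lower, at 30 (wt) and 8 (Nrf2-EGFP) counts, and Fstl1 the other higher one (2 and 26 counts).

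**Figure D4:**
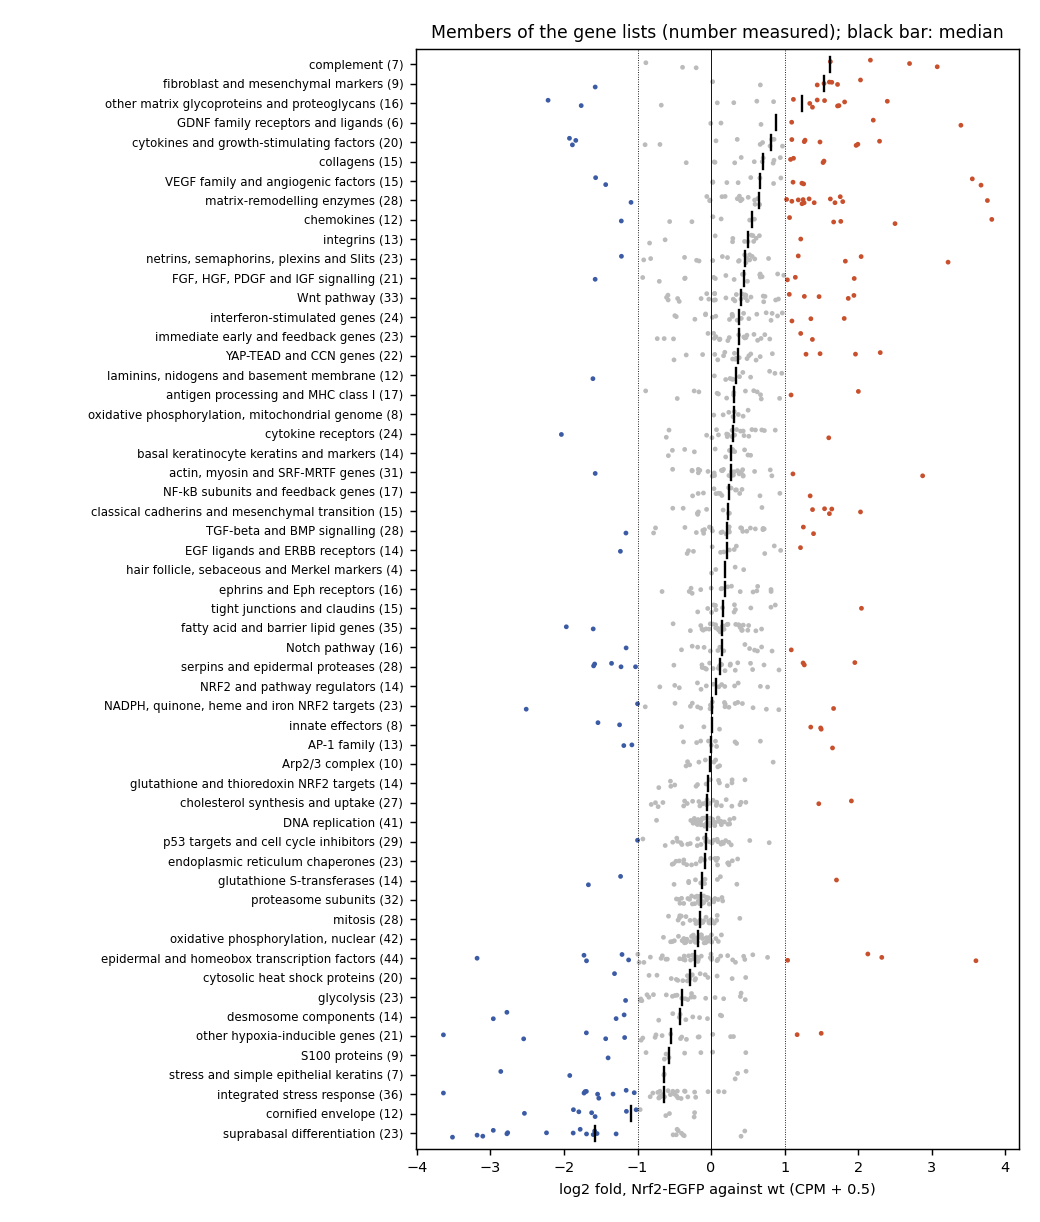
Log2 fold, Nrf2-EGFP against wt (x axis, CPM + 0.5), of every measured member of each gene list with at least 4 measured members, 1 point a gene, in colour where called, with a black bar at the list's median. Mesenchymal and other matrix lists lie near the top, and suprabasal, cornified and stress response lists near the bottom; members with under 1 CPM in 1 library are included.

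Of 12 measured chemokines 5 were higher and 1 was lower (median 0.56). Of the 5, 1 had under 1 CPM in wt. Cxcl1, a neutrophil attractant, had 36.4 CPM in wt, 125 in Nrf2-EGFP and 276 in ARPC4 ko (3.43-fold, 3.17 to 3.71). Cxcl2, its near relative, had 4.71, 5.23 and 45.2 CPM, and was not called. Cx3cl1, fractalkine, was not called either (2.94, 4.67 and 21.8 CPM). Ccl20, which attracts cells carrying CCR6, was the member lower, with 12.7 CPM in wt, 5.15 in Nrf2-EGFP and 17.2 in ARPC4 ko. Cytokines and growth-stimulating factors had 7 of 20 higher and 3 lower (0.81). Of the 7, 1 had under 1 CPM in wt, and of the 3, 2 had under 1 CPM in Nrf2-EGFP. Csf1, the macrophage growth factor, had 41.8 CPM in wt, 207 in Nrf2-EGFP and 192 in ARPC4 ko (4.94-fold, 4.61 to 5.3), and Il24, an IL-10 family cytokine, 25.5, 72 and 45.5. Il1rn, the interleukin 1 receptor antagonist, was lower (16.2, 3.9 and 3.13 CPM), as was Il33 (37 and 2 counts in wt and Nrf2-EGFP), while Il1a, with 244 and 432 CPM, was not called.

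Receptors for cytokines had 1 of 24 higher and 1 lower, near the shares over all measured genes (3.61% and 2.06%). The lower one was Il1rl2, the interleukin 36 receptor, with 7.16 CPM in wt and 1.37 in Nrf2-EGFP. NF-kB subunits and feedback genes had 1 of 17 higher, Nfkbie (22 and 81 counts). Nfkbia, an inhibitor and target of NF-kB, had 52.3 CPM in wt, 66 in Nrf2-EGFP and 105 in ARPC4 ko, and Tnfaip3 37, 71.1 and 99.1. Complement had 4 of 7 measured members higher and none lower, of 23 in the list. Of the 4, 2 had under 1 CPM in wt (C1s1 and C1ra), and of the 7 another had under 1 CPM in Nrf2-EGFP, so no median is given. C1s1 (9 counts in wt, 176 in Nrf2-EGFP) and C1ra (8 and 83), proteases of the classical pathway, were higher, as was clusterin, Clu, with 21.3 CPM in wt, 66.7 in Nrf2-EGFP and 84.1 in ARPC4 ko. Interferon-stimulated genes had 3 of 24 higher and none lower (0.38), namely Isg15, Oasl2 and Rsad2, each with at most 2.86 CPM in Nrf2-EGFP. Of the 3, 2 had under 1 CPM in wt. Irf9 had 9.03 CPM in wt, 9.46 in Nrf2-EGFP and 19.9 in ARPC4 ko. Of 17 antigen processing genes, Tapbp, tapasin (112 and 239 CPM in wt and Nrf2-EGFP), and the immunoproteasome gene Psmb8 (1.42 and 7.2) were higher. Innate effectors had 3 of 8 higher and 2 lower, with Slpi, a protease inhibitor of epithelia, at 10.6 and 27.8 CPM and Ptges, a prostaglandin E synthase, at 28.9 and 82.1. Of the 3 higher, 1 had under 1 CPM in wt.

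In the VEGF family and angiogenic factors 5 of 15 were higher and 2 lower (median 0.66): Flt1, a VEGF receptor, had 24.7 CPM in wt, 59.8 in Nrf2-EGFP and 51.8 in ARPC4 ko, and the coreceptor gene Nrp1 22.9, 50.1 and 32.7. Vegfa, with 56.8, 57.7 and 48.4 CPM, lay near wt in both. Ccbe1, needed to process VEGF-C, had 4.18 CPM in wt, 54.4 in Nrf2-EGFP and 23.3 in ARPC4 ko. Of 6 GDNF family and neurotrophin genes 3 were higher: Gfra2, a neurturin receptor, at 4.54, 52.5 and 29.8 CPM, Gdnf at 8.23, 18.2 and 18.2, and the neurotrophin receptor gene Ngfr at 0.534, 4.27 and 4.81. In FGF, PDGF and IGF signalling 3 of 21 were higher and 1 lower, with Igfbp3, which binds insulin-like growth factors, at 131, 505 and 365 CPM (3.86-fold, 3.71 to 4.02) and Fgf13 lower at 11.1, 3.38 and 8.72. EGF family genes had 1 of 14 higher and 1 lower: Epgn, epigen, had 237 CPM in wt and 101 in Nrf2-EGFP, while Nrg2 was at 24 and 78 counts. Hbegf (27.3 and 53.1 CPM) and Tgfa (82.9 and 151) were not called.

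Of 23 netrins, semaphorins, plexins and Slits 4 were higher and 1 lower. Sema4f had 7.69 CPM in wt, 28.5 in Nrf2-EGFP and 30.6 in ARPC4 ko (3.71-fold, 3.14 to 4.41), Sema7a 0.845, 5.03 and 2.3, and Sema3e 15.6, 36 and 24.9. Sema3d was lower (36 and 10 counts in wt and Nrf2-EGFP), and none of 16 ephrins and Eph receptors was called (median 0.19). Of 33 Wnt pathway genes 5 were higher and none lower (median 0.41). Of the 5, 2 had under 1 CPM in wt. Wnt7a, a secreted ligand, had 42.5 CPM in wt, 103 in Nrf2-EGFP and 67.4 in ARPC4 ko, Wnt11 3.87, 15.4 and 10.1, and Wnt5a 0.489, 3.3 and 0.782. Nrf2-EGFP was the highest of the 3 libraries in all 3. Axin2, a feedback target of beta-catenin, had 10.7 CPM in wt and 12.4 in Nrf2-EGFP. In the Notch pathway 1 of 16 was higher, Maml2 (14.3 and 30.9 CPM), and 1 lower, Maml3 (13 and 5.55).

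Epidermal and homeobox transcription factors had 4 of 44 higher and 5 lower. Of the 4, 3 had under 1 CPM in wt, and of the 5, 2 had under 1 CPM in Nrf2-EGFP. Tfap2c, an AP-2 factor of epidermis, had 14.5 CPM in wt, 5.997 in Nrf2-EGFP and 5.35 in ARPC4 ko, and was lower. Sox4 had 64.3, 133 and 124 CPM and was higher. The keratinocyte regulator gene Trp63 (299 and 366 in wt and Nrf2-EGFP) was not called. The AP-1 family had 1 of 13 measured members higher, Batf3 (3 and 37 counts), and 2 lower, among them Maf (16.8 and 7.08 CPM), while Fosl1 (44.8 and 47.2 CPM) and Junb (109 and 114) were not called. Immediate early and feedback genes had 2 of 23 higher, the ERK and MAPK phosphatase genes Dusp6 (40.3, 94.5 and 106 CPM in wt, Nrf2-EGFP and ARPC4 ko) and Dusp10 (17.4, 46.1 and 46.2).

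The integrated stress response, which ATF4 drives when amino acids or protein folding fail, had 9 of 36 measured members lower and none higher, and a median log2 fold of -0.65. Stc2, a secreted glycoprotein, had 47.4 CPM in wt, 3.34 in Nrf2-EGFP and 2.34 in ARPC4 ko. Atf5 had 219, 66.5 and 102 CPM (3.3-fold lower, 3.12 to 3.49), Bcat1, a branched-chain aminotransferase, 50.2, 14.8 and 4.85, and Ddit4, an inhibitor of mTORC1, 175, 53.7 and 57.1. In each of these wt was the highest library. Atf4 itself had 702 CPM in wt and 468 in Nrf2-EGFP, and the asparagine synthetase gene Asns 461 and 314, both without a call. Endoplasmic reticulum chaperones had none of 23 called (median -0.09), with Hspa5, the chaperone BiP, at 1144 and 951 CPM. Among 20 heat shock proteins Dnajb4 was lower (40.2 and 15.9 CPM), and the median was -0.29.

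Glycolysis genes had 1 of 23 lower and none higher, and a median of -0.40. Pfkl, a phosphofructokinase subunit, had 275 CPM in wt, 123 in Nrf2-EGFP and 173 in ARPC4 ko (2.24-fold lower, 2.15 to 2.34), and Ldha, lactate dehydrogenase A, 1037, 539.8 and 551 without a call. Of 21 other hypoxia-inducible genes 5 were lower and 2 higher (median -0.55), with Stc2 and Ddit4 counted both here and in the stress response list. Of the 5, 1 had under 1 CPM in Nrf2-EGFP, and of the 2, 1 had under 1 CPM in wt. Bnip3, a mitophagy receptor, had 23.6 CPM in wt, 3.62 in Nrf2-EGFP and 6.95 in ARPC4 ko, and Car12, a carbonic anhydrase, 72.3, 31.7 and 36.6, while Bhlhe40 was higher at 61.6, 139 and 122. Hif1a had 374 CPM in wt and 220.1 in Nrf2-EGFP. Cholesterol genes had 2 of 27 higher and none lower (-0.05). The efflux transporter gene Abcg1, which was higher, had 4.85 CPM in wt, 19.6 in Nrf2-EGFP and 21.3 in ARPC4 ko. The synthesis enzyme gene Hmgcs1 had 1222, 742 and 600.1 CPM without a call. Among 35 fatty acid and barrier lipid genes Fabp5 and Abca12 were lower, and Fads1, a desaturase, had 187 CPM in wt and 301 in Nrf2-EGFP. Oxidative phosphorylation had none of 42 nuclear (-0.18) and none of 8 mitochondrial genes (0.31) called, and the mitochondrial genome took 1.33% of gene counts in wt and 1.56% in Nrf2-EGFP. Ribosomal protein genes took 3.24% and 2.66%.

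Proliferation genes lay near wt. None of 41 DNA replication genes (median -0.06) and none of 28 mitotic genes (-0.15) was called, and Mki67, a marker of cycling cells, had 719.97 CPM in wt and 671 in Nrf2-EGFP. Of 29 p53 targets and cell cycle inhibitors Trp53inp1 alone was lower, and Cdkn1a, the inhibitor p21, had 76.7 and 55.4 CPM. None of 10 Arp2/3 subunits was called, with Arpc4 at 94.2 CPM in wt, 98.4 in Nrf2-EGFP and 61 in ARPC4 ko. Actin, myosin and SRF genes had 2 of 31 higher and 1 lower: Tns1, a tensin of focal adhesions, had 5.6, 44.3 and 34.7 CPM and Flnc, a filamin, 11.8, 26.2 and 29.9.

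A few genes had counts in 1 of the 2 libraries only. Tbx15, a T-box factor of limb and skin patterning, had 0 counts in wt and 42 in Nrf2-EGFP, at least 12.7-fold higher against a floor of 3 counts per library. Fndc3c1 had 0 and 54 counts (at least 16.3-fold higher) and Iglon5 0 and 33 (at least 9.96-fold higher). At 0 in Nrf2-EGFP were B4galnt2, which had 47 in wt (at least 17.3-fold lower), Rps4l with 38 (at least 14-fold lower), Sdr16c6 with 31 (at least 11.4-fold lower) and the suprabasal keratin gene Krt1 with 30 (at least 11-fold lower). ARPC4 ko had 14 counts of Tbx15, 2 of Fndc3c1, 8 of B4galnt2 and 1 of Krt1.

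Differences were also unevenly spread over chromosomes. On chromosome 3, 82.0% of 557 measured genes had a log2 fold below 0 and the median was -0.31; on chromosome 12, 80.5% of 416 did, with a median of -0.29. At the other end, 22.8% of 755 genes on chromosome 5 (median 0.19) and 23.7% of 569 on chromosome 17 (0.17) lay below 0. Along each of these 4 chromosomes, blocks of 20 Mb with at least 20 genes kept the sign of the chromosome: their medians ranged from -0.37 to -0.22 on chromosome 3, from -0.37 to -0.24 on chromosome 12, from 0.15 to 0.25 on chromosome 5 and from 0.10 to 0.22 on chromosome 17. The ARPC4 ko library had medians against the same wt library of -0.20, -0.17, 0.19 and 0.27 on chromosomes 3, 12, 5 and 17. Between Nrf2-EGFP and ARPC4 ko the medians were smaller in size, at -0.099, -0.081, -0.0013 and -0.084 in the same order. Most of each shift thus set wt apart from both other libraries. DNA copy number was not measured in the files analysed here. On these 4 chromosomes the calls, which rest on the same log2 folds, followed the same direction. On chromosome 3, 3.95% of genes were called lower and 2.15% higher, and on chromosome 12, 2.64% and 1.92%. The shares of all measured genes were 2.06% and 3.61%. On chromosome 5 the shares were 0.662% lower and 4.9% higher, and on chromosome 17 0.879% and 4.57%. Not all other chromosomes followed: on chromosome 1, with a median of -0.16, 1.22% of genes were called lower and 3.97% higher. Of the 22 genes called lower on chromosome 3, 7 belonged to the suprabasal, cornified envelope or S100 lists. The part of these chromosome shifts in the results for single genes was not tested.

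**Figure D5:**
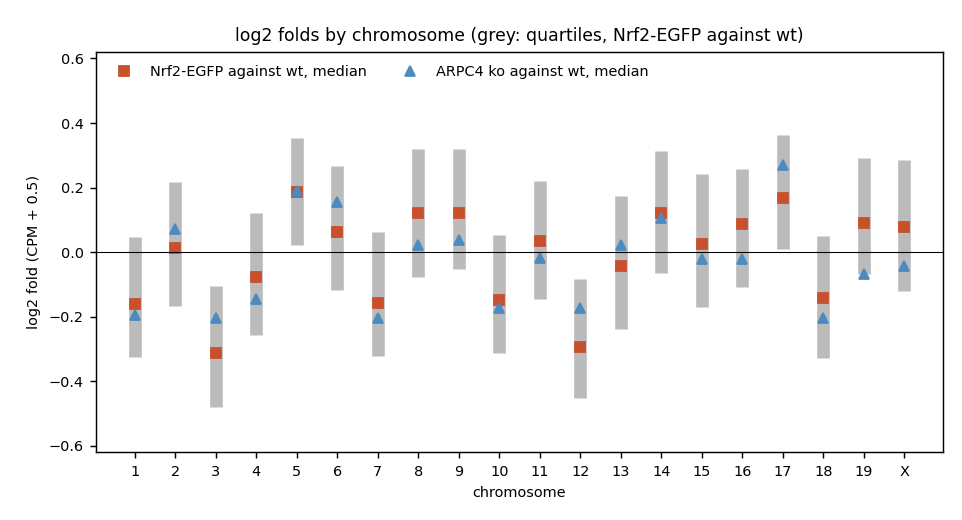
Median log2 fold (y axis, CPM + 0.5) of the measured genes of each chromosome (x axis) for Nrf2-EGFP against wt (squares, with grey bars from the lower to the upper quartile) and for ARPC4 ko against the same wt library (triangles). Chromosomes 3 and 12 have the lowest squares, at -0.31 and -0.29, and chromosomes 5 and 17 the highest.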

How the data were processed

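RNA was extracted with TRIzol and made into TruSeq Stranded mRNA libraries, read as 65 bp single ends, per the labels' protocols. TopHat2 2.1.0, Bowtie 1.1, HTSeq and the mm10 build are named in the submitters' processing notes; neither the strand setting nor the annotation release is named there. The authors deposited 1 table a library, of unnormalised read counts per gene. Rows that name no gene held 9.08% (wt), 8.22% (ARPC4 ko) and 8.48% (Nrf2-EGFP) of each table and were left out. Those rows hold the reads without a unique alignment, so near-identical copies (Sprr, Gst, Krt6, Oas and H2 genes) may be undercounted. Overlapping antisense genes may not be told apart.

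Symbols came from GENCODE M21 (GRCm38). CPM are counts over library sizes scaled with TMM factors of all 3 libraries (0.981 in wt, 1.06 in ARPC4 ko, 0.966 in Nrf2-EGFP; edgeR 4.0.16, R 4.3.3). Genes with 1 CPM in wt or Nrf2-EGFP were kept. A gene was called where the log2 ratio of CPM + 0.5, which understates differences at low counts, reached 1 in either direction and the exact 95% Clopper-Pearson interval of the ratio, conditional on the gene's sum, excluded 1. Intervals, and the floor of 3 counts (0.133 CPM in wt, 0.121 in Nrf2-EGFP), cover counting error alone, because each genotype had 1 library. PCR copies cannot be told from separate molecules, so the intervals may understate even that error. The steps were tested on simulated data. With 1 library a group no test across genes was possible. DESeq2 1.42.0 gave size factors for an alternative scaling only.

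Members of the 59 gene lists, and the lists themselves, were chosen with earlier results of these data known. Named genes were the 25 highest and 25 lowest log2 folds among called genes with at least 10 CPM (predicted genes left out), the 10 largest gains and losses in CPM, up to 6 members of each list with the largest log2 fold in size, genes at 0 in 1 library with at least 30 counts in the other, and Nfe2l2, Keap1, Arpc4, Nqo1, Hmox1, Gclc, Gclm, Gsta4, Txnrd1, Srxn1 and Slc7a11. Other genes named were chosen after their values were seen: Adamts4, Asns, Atf4, Axin2, Bhlhe40, Cdh1, Cdkn1a, Col4a1, Col4a2, Ctsc, Cx3cl1, Cxcl2, Evpl, Fosl1, Fth1, Ftl1, G6pdx, Hif1a, Hspa5, Il1a, Il24, Irf9, Junb, Klf4, Krt10, Mki67, Mmp11, Mmp14, Nfkbia, Nrp1, Ovol1, Pgd, Plau, Ppl, Snai2, Sox4, Sprr2k, Tchh, Tfap2c, Tgm1, Timp2, Timp3, Trp63, Vegfa, Xist. Lists not described in the results are S100 proteins (0 higher and 1 lower of 9), and markers of immune (1 of 16 measured), melanocyte (1 of 8), endothelial (1 of 3 measured higher) and hair follicle, sebaceous and Merkel cells (none of 4 measured called). Some members of these lists are not reported here.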

Additional observations from a re-analysis of the deposited data

How the results depend on the processing

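Scaling by total counts, DESeq2 size factors, TMM of the 2 libraries alone, no filter and a pseudocount of 0.1 CPM left 403 to 492 genes called higher and 234 to 325 called lower, against 421 and 241. A filter of 10 CPM gave 230 higher and 91 lower, since fewer genes were tested, and a pseudocount of 2 CPM gave 258 higher and 104 lower, as it shrinks the ratios of genes with few counts. With that pseudocount 50 of the 367 genes named by rule lost their call, and none of the called ones changed direction under these settings. Among the uncalled ones the sign turned for 2, both within 0.016 of 0 on the log2 scale, with DESeq2 size factors or total counts. A filter of 1 CPM in both libraries, chosen after seeing the data, left 317 higher and 135 lower, since it removes genes near 0 in 1 library. Trp53inp1 also lost its call with DESeq2 size factors and with TMM of the 2 libraries alone. The spread between the highest and lowest chromosome medians was 0.498 and without a filter 0.340. The sign of the median of innate effectors, AP-1 genes, stress keratins, serpins and epidermal proteases, Notch genes, endothelial markers and the NADPH list turned under at least 1 setting. No replicate could be left out, and with 1 library a genotype the depth limits only genes with few counts. No paired analysis was possible because each genotype has 1 library.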
